A study of Vitis vinifera with 2 samples.

Results

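PR10 proteins are encoded on chromosome 5 of grape (Vitis vinifera) by a row of neighbouring genes. All genes whose name in the transcript tables begins with PR10 and a point were taken, which gave 8 genes, PR10.2 to PR10.9, of 30485 genes in all. RNA came from wounded grape tissue, with 1 library from a wound given 10 µL of a Y. lipolytica suspension and 1 from a wound given as much sterile water. Y. lipolytica is a yeast, and the series asks which resistance genes of grape respond to it. Incubation was at 20 °C and both samples were taken after 3 days. The labels name no cultivar, no number of berries or wounds and no pooling, and the label for strain names the yeast in both samples, so groups follow the titles and the treatment protocol. The design text of the series mentions 2 types of tissue, whereas both samples carry the same tissue label, so a difference in tissue between the libraries cannot be told apart from the treatment. With n = 1 per group there is no test and no p-value, and differences between the libraries have no check by replicates.

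PR10 proteins are small intracellular plant proteins of the same fold as the birch pollen allergen Bet v 1. They have a hydrophobic pocket that can hold small molecules such as hormones and flavonoids, and ribonuclease activity has been described for some of them in the test tube. In many plants, PR10 transcripts build up after wounding and after attack by fungi, which is why they are counted among the pathogenesis-related proteins. Separate roles of the 8 grape copies are not assigned here.

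Depth was 19010746 fragment equivalents, of 300 aligned bases each, with water and 20540965 with the yeast. FPKM, as deposited by the authors, counts fragments per kilobase of a transcript relative to library size. A gene counted as measured at 1 FPKM or more in either library, which 16040 genes reached. Ratios are log2 of treated over control FPKM after 1 was added to each, and folds are plain FPKM ratios. The median log2 ratio of the measured genes was -0.28, so ratios near that value are those of a typical gene. Markers of ripening fruit were abundant in both libraries, with 7 of 8 listed markers measured and 0 of them past 2-fold. The median log2 ratio of these 7 was -0.19, beside -0.28 over all measured genes. GRIP28, a ripening-induced gene, stood at 10216 FPKM with water and 7174 FPKM with the yeast, and GRIP22 at 794 and 439.5 FPKM. Those are the lowest ratios among the 7, whereas ADH2 was higher with the yeast, at 4537 and 5315 FPKM. Of 4 skin and colour markers 3 were measured, at 1.94 and 1.17 FPKM for UFGT, 59.5 and 40.6 FPKM for LDOX, and 2.81 and 0.597 FPKM for LOC100853472 (synonym MybA1). The last of these was the only listed marker past 2-fold, on the lower side. Only PSBP1 of 4 listed green tissue markers was in the files, at 1.07 and 0.988 FPKM. The part of tissue make-up in the PR10 ratios was not tested, and fewer cells of a type cannot be told apart from less RNA per cell.

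The PR10 genes lay within 57396 bases of chromosome 5 and were alike in structure. The files name the sequence NC_012011.3, and no source used here gives the genome build. All 8 genes are on the plus strand and have 1 transcript model with 2 exons, a number of exons found in 15.0% of all models in the files. It is not particular to the PR10 names here. Of the 18 genes in the surrounding 100 kb, 14 have only models with 2 exons, these 8 included. In the order of the chromosome they are PR10.3 (1251107 to 1252030), PR10.2 (1263675 to 1264666), PR10.4 (1271487 to 1272482) and PR10.5 (1295996 to 1296900). PR10.6 (1298340 to 1299280), PR10.7 (1301697 to 1302538), PR10.9 (1304819 to 1305988) and PR10.8 (1306120 to 1308502) follow. Exons sum to between 739 and 1058 bases in 7 of the genes, with a single intron of 103 to 196 bases. PR10.8 is the exception, with 1952 bases of exon and an intron of 431 bases. Distances between neighbouring members run from 131 bases, between PR10.9 and PR10.8, to 23513 bases, between PR10.4 and PR10.5. The same order, read from the other end of the chromosome, stands in the RefSeq gene table of another assembly (ASM3070453v1), which lists all 8 as protein-coding.

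PR10 transcripts were split into a small group at high level and a larger group near the limit of measurement. Of the 8 genes, 3 reached 2-fold higher levels with the yeast than with water, and 0 reached 2-fold lower levels. The same marks were passed by 6.26% (higher) and 3.66% (lower) of the measured genes, and the higher one by 3.29% of all 30485 genes. PR10.3 and PR10.8 also passed 4-fold, as did 1.95% of the measured genes. The higher members were PR10.2, PR10.3 and PR10.8, and they were also the 3 members above 1 FPKM in the control. The other 5 genes together had 1.38 FPKM with water and 2.16 FPKM with the yeast. Without a filter on low values, which 4 of the 8 genes pass, the median log2 ratio of all 8 was 0.53 and that of all 30485 genes was -0.04.

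**Figure D1:**
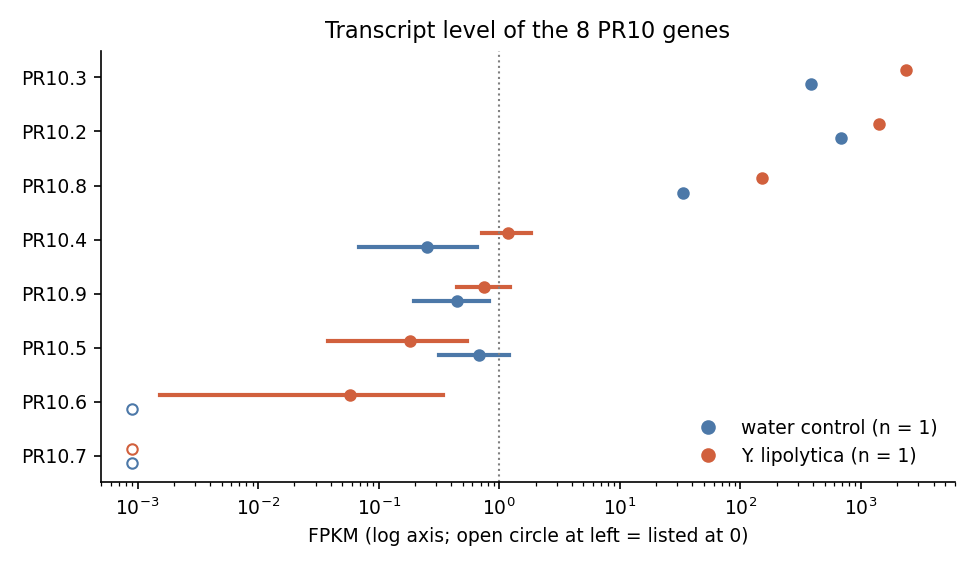
FPKM of each PR10 gene in the water control and in the Y. lipolytica library (log axis), with lines for exact Poisson 95% counting intervals; open circles at the left are genes listed at 0 and the dotted line is 1 FPKM. PR10.3, PR10.2 and PR10.8 lie between 33.6 and 2359 FPKM, and the other 5 genes at or below 1.18 FPKM.

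PR10.3 had 388 FPKM with water and 2359 FPKM with the yeast. The treated value is 6.07 times the control (95% counting interval 5.91 to 6.24), on 6101 and 39756 fragment equivalents. By level the gene moved from place 261 to place 29 among all genes. Its log2 ratio of 2.60 was reached or passed by 51 of the 1485 genes with at least 100 FPKM in either library (3.43%), and by 127 of all measured genes (0.792%). A spliced model on the minus strand, named LOC100261887, overlaps the start of PR10.3 by 151 bases. That model stood at 106.7 and 708 FPKM. No source used here says whether the libraries keep the strand, so reads of the overlap cannot be assigned to either gene with certainty.

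PR10.2 was the most abundant PR10 gene in the water control and differed least among the 3 abundant genes. It had 680.05 FPKM with water and 1422 FPKM with the yeast, 2.09-fold higher (2.05 to 2.14). These levels correspond to places 122 and 46 among all genes. Its log2 ratio of 1.06 lies just past the 2-fold mark, and 5.79% of all measured genes had one at least as high. Among the 1485 genes with at least 100 FPKM in either library that share was 15.6%, and 16.2% of them passed 2-fold on the higher side. A gene low with water enters this set only when it is high with the yeast, so these shares depend in part on the difference itself. The counting intervals of the PR10.2 and PR10.3 folds do not overlap.

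PR10.8 had 33.6 FPKM with water and 150.3 FPKM with the yeast, 4.47-fold higher (4.21 to 4.75), on 1291 and 6195 fragment equivalents. It moved from place 3490 to place 861. Its log2 ratio of 2.13 was reached or passed by 1.63% of all measured genes and by 7.14% of those with at least 100 FPKM in either library. PR10.8 is in the latter set through its treated level alone, so its place there depends on the difference itself. PR10.8 starts 131 bases after PR10.9 ends, so the copy with the longest exons sits beside one that stayed under 1 FPKM. PR10.9 had 0.447 FPKM with water and 0.746 FPKM with the yeast, on 9.31 and 16.7 fragment equivalents. Its plain ratio of 1.67 has a counting interval from 0.703 to 4.25, so a difference in PR10.9 was not detectable at this depth.

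**Figure D2:**
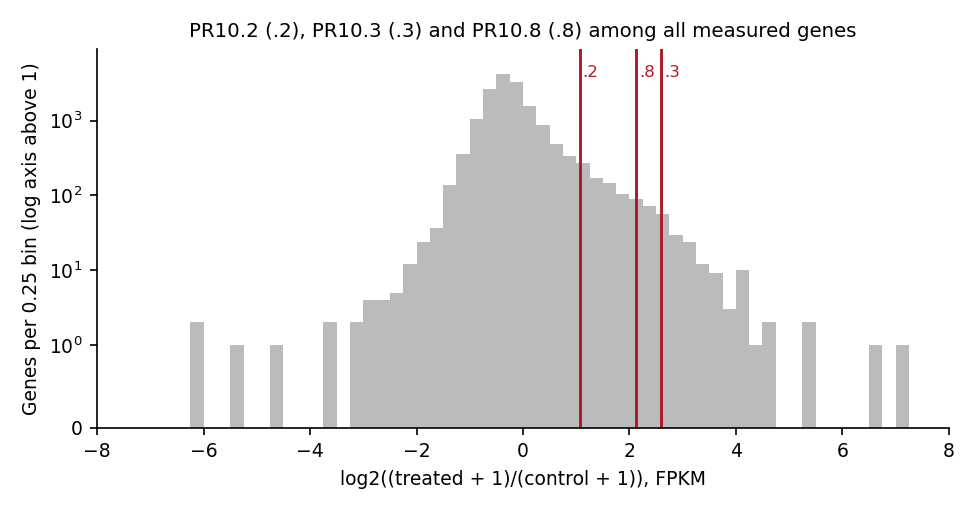
Number of measured genes per 0.25 bin of log2 ratio (log axis above 1), with red lines at PR10.2, PR10.8 and PR10.3. The lines stand at 1.06, 2.13 and 2.60, to the right of the bulk of the 16040 genes, whose median is -0.28.

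In the order of the members along the chromosome, the 5 low genes, PR10.4 to PR10.9, all lie between PR10.2 and PR10.8. PR10.4 had 0.253 FPKM with water and 1.18 FPKM with the yeast, on 3.99 and 19.9 fragment equivalents. The plain ratio was 4.65 with a counting interval from 1.56 to 18.7, while the log2 ratio with 1 added was 0.80 and so within 2-fold. PR10.4 passed the limit of 1 FPKM in the treated library alone. PR10.5 was the only member with a lower value in the treated library. It had 0.682 FPKM with water and 0.182 FPKM with the yeast, on 10.3 and 2.96 fragment equivalents, a ratio of 0.267 with an interval from 0.0472 to 1.04 that includes no difference. PR10.6 was listed at 0 with water and at 0.0577 FPKM with the yeast, from less than 1 fragment equivalent. A count of 0 over PR10.6 allows up to 0.197 FPKM in the control, taken as 3 fragments, so no fold is given. PR10.7 was listed at 0 in both libraries, which allows up to 0.206 FPKM with water and 0.192 FPKM with the yeast.

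In the control the order of levels was PR10.2, PR10.3, PR10.8, PR10.5, PR10.9 and PR10.4, with PR10.6 and PR10.7 at 0. In the treated library it was PR10.3, PR10.2, PR10.8, PR10.4, PR10.9, PR10.5 and PR10.6, with PR10.7 at 0. The Poisson counting intervals of the first 3 places are apart in both libraries. Those of PR10.5 (0.317 to 1.22 FPKM), PR10.9 (0.198 to 0.820 FPKM) and PR10.4 (0.0692 to 0.650 FPKM) overlap in the control, so their order there is not resolved. In the treated library PR10.4 (0.723 to 1.83 FPKM) and PR10.9 (0.443 to 1.22 FPKM) overlap, whereas PR10.4 and PR10.5 (0.0381 to 0.540 FPKM) do not.

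Summed over the 8 genes, PR10 transcripts made up 1103 FPKM with water and 3933 FPKM with the yeast, 3.56-fold more (3.51 to 3.62). Their share of all FPKM was 0.143% and 0.519%. The leading gene was another one in each library. PR10.2 held 61.6% of the PR10 sum with water and 36.1% with the yeast, and PR10.3 held 35.2% and 60.0%. PR10.8 held 3.05% and 3.82%, and the 5 low genes 0.125% and 0.0550%. In control tissue PR10.3 stood at 0.571 times the FPKM of PR10.2, and in treated tissue at 1.66 times. Leaving out PR10.3 lowered the log2 ratio of the sum from 1.83 to 1.14, and leaving out PR10.2 raised it to 2.57.

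**Figure D3:**
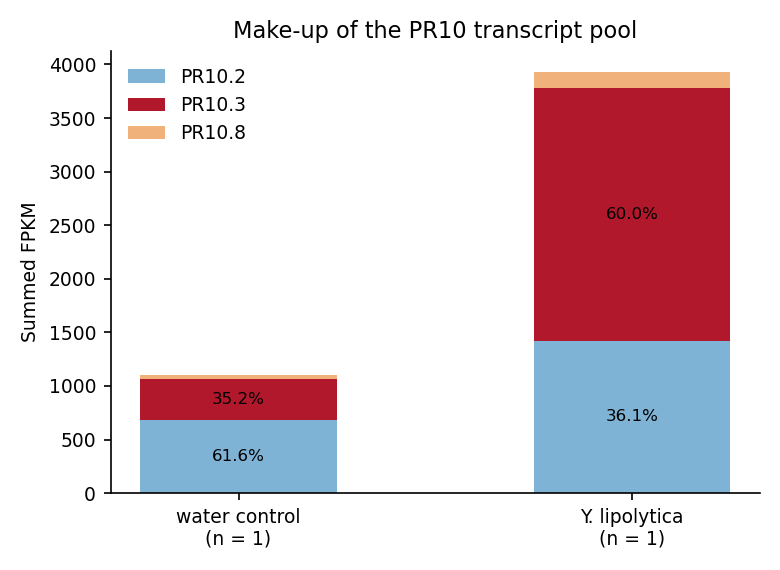
Summed FPKM of PR10.2, PR10.3 and PR10.8 in each library (bars from 0, stacked), with the percentage of the PR10 sum held by PR10.2 and PR10.3. The pool is 1103 FPKM with PR10.2 as the larger part in the control, and 3933 FPKM with PR10.3 as the larger part in the treated library.

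The order of PR10.2 and PR10.3 in the treated library depends on the table that is read. In the authors' deposited gene table, PR10.3 has the values 217 and 1319, PR10.2 has 993 and 2076, and PR10.8 has 93.1 and 416. PR10.2 is therefore the higher of the first pair in both libraries of the authors' deposited table, with PR10.3 at 0.635 times PR10.2 in treated tissue. The plain ratio of treated to control is the same to 3 digits in the authors' deposited table and in the transcript tables, for each of the 3 genes. FPKM times the length of the transcript model, divided by the value in the authors' deposited table, gives whole numbers to within 0.1, namely 1427 bases for PR10.3, 606 for PR10.2 and 705 for PR10.8. The transcript models of these genes have 798, 885 and 1952 bases. Levels of different genes in the authors' deposited table are thus not per length of these models, and the order from the transcript tables is the one per length.

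**Figure D4:**
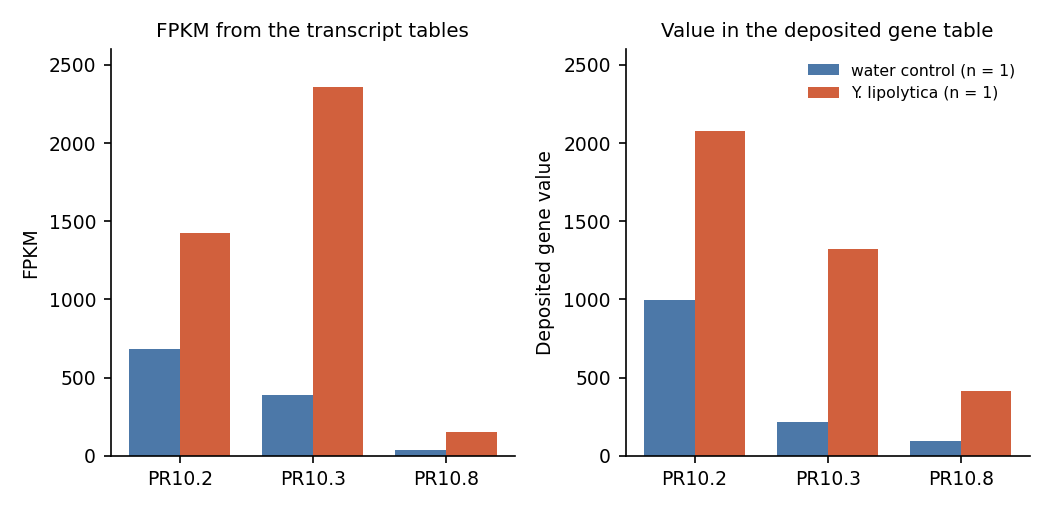
Levels of PR10.2, PR10.3 and PR10.8 in each library, as FPKM of the transcript tables (left) and as values of the authors' deposited gene table (right), with bars from 0. In treated tissue PR10.3 is the taller bar on the left, at 2359 FPKM, and PR10.2 on the right, at 2076.

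A stretch of 100 kb of chromosome 5 around the PR10 genes also holds 10 genes that carry no PR10 name. Of these 7 were measured, 5 of them reached 2-fold higher levels with the yeast and 0 reached 2-fold lower levels, beside 6.26% and 3.66% of all measured genes. The 5 genes are LOC100246525, LOC100251668, LOC100256795, LOC100261887 and LOC100244758, which the files and the RefSeq gene table give by number only, with no product. Together with PR10.3 and PR10.2 they form a run of 7 consecutive genes, from 1231997 to 1264666, that were each at least 2-fold higher. These genes were grouped with their values already known.

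The unnamed neighbours differed more between the libraries than the PR10 genes among them. LOC100244758, which lies between PR10.3 and PR10.2 on the same strand and has 2 exons, had 124 FPKM with water and 1284 FPKM with the yeast, 10.3-fold higher (9.86 to 10.8). LOC100256795 had 147 and 1369 FPKM, 9.32-fold higher (8.92 to 9.73). LOC100251668 had 165 and 1415 FPKM, 8.56-fold higher (8.22 to 8.92). LOC100246525, summed over 5 models, had 167 and 1528 FPKM, 9.17-fold higher (8.82 to 9.53), and LOC100261887 had 272 and 1973 FPKM, 7.26-fold higher (7.03 to 7.49). The lower bound of each of these intervals lies above the upper bound of PR10.3, at 6.24, and of PR10.2, at 2.14.

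The 5 neighbours and the 2 PR10 genes of the run lay between 1284 and 2359 FPKM in treated tissue. In control tissue the 2 PR10 genes, at 388 and 680.05 FPKM, were above the 5 neighbours, at 124 to 272 FPKM. Summed over the run the values were 1944 FPKM with water and 11349 FPKM with the yeast, 5.84-fold more (5.77 to 5.91), or 0.251% and 1.50% of all FPKM. PR10.2 and PR10.3 together held 55.0% of the run with water and 33.3% with the yeast.

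The split of reads within the run is less certain than its sum. Of the neighbours, 4 share 1 assembled locus with 7 models, some of which span more than 1 gene, and the authors' deposited table gives all 4 the same pair of values, 367 and 2969. LOC100246525 includes 2 models on the plus strand, opposite to its other models, which sum to 36.9 FPKM with water and 574 FPKM with the yeast. No source used here says how reads that fit several copies were placed.

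Outside the run, genes of the stretch were low or within 2-fold, apart from PR10.8. LOC100255029 and LOC104877420, which the RefSeq gene table lists as pseudogenes, had 0 and 0.138 FPKM and 0 in both libraries. LOC100263738, at the end of the stretch before the run, had 0 and 0.0877 FPKM. Past PR10.8, LOC100263762 had 4.56 and 2.34 FPKM and LOC100251740 had 13.8 and 11.3 FPKM. PR10.8 was thus the only gene past 2-fold in the stretch that has no neighbour past 2-fold.

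**Figure D5:**
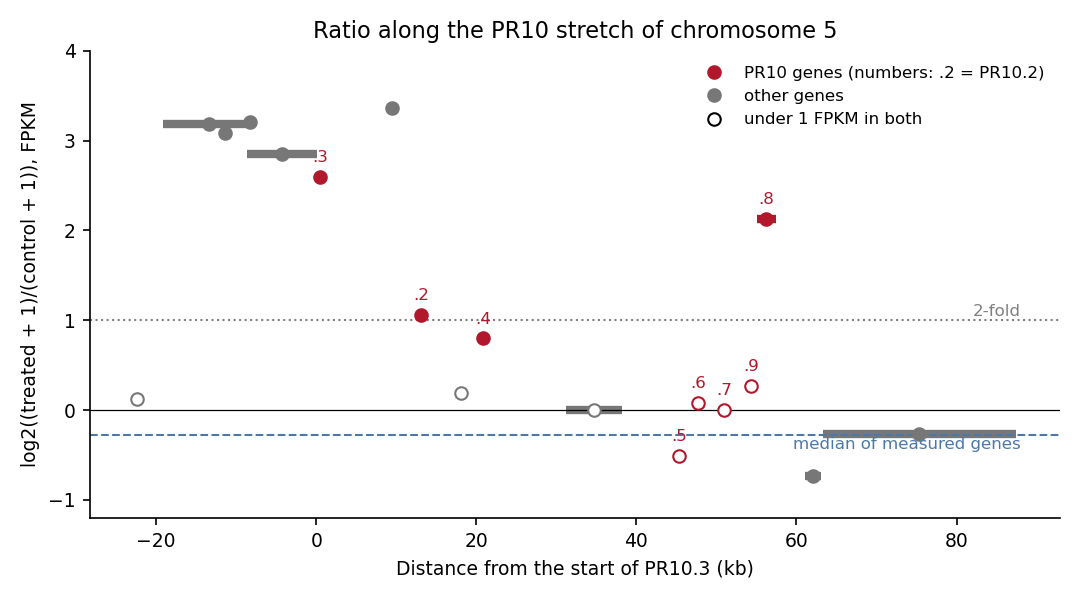
log2 ratio of the 18 genes of the chromosome 5 stretch against distance from the start of PR10.3 in kb; bars span each gene, red marks PR10 genes, grey the others, and open circles genes under 1 FPKM in both libraries. The 5 grey genes around PR10.3 lie between 2.85 and 3.36, above PR10.3 at 2.60 and PR10.2 at 1.06, and PR10.8 at 2.13 stands alone.

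Other pathogenesis-related and stilbene genes were taken from a list of 15 names, of which 12 were in the files as 11 genes and 10 genes were measured. Of these 6 were at least 2-fold higher and 0 lower, beside 6.26% and 3.66% of all measured genes. Their median log2 ratio was 1.48, beside -0.28 over all measured genes. Among the 6 higher genes, the lowest fold was 2.55, for a chitinase (LOC100232985), an enzyme that cleaves chitin. The highest was 5.59, for the stilbene synthase STS, which makes resveratrol. PR10.3 at 6.07 was above this range, PR10.8 at 4.47 within it and PR10.2 at 2.09 below it. PR1 was listed at 0 in both libraries. The chitinase CHI4D and the thaumatin-like TL3 were within 2-fold, at log2 ratios of -0.19 and -0.01. So were TL1, at 0.41, and G1, at -0.47.

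Among 67 genes with a symbol and at least 100 FPKM in either library, those with a log2 ratio over the 2 libraries near that of the PR10 sum (1.83) included LOXO, MYB14, CHI4C and MRIP1. LOXO, a lipoxygenase, stood at 1.85, and MYB14, a transcription factor of the stilbene pathway, also at 1.85. Both were under 100 FPKM with water and are in this set through their treated level alone. Their place in it therefore depends on the difference itself, whereas CHI4C and MRIP1 were above 100 FPKM in both libraries. The chitinase CHI4C stood at 1.62. MRIP1 stood at 2.24, 0.41 away from the sum. With 1 ratio per gene, likeness means only a similar difference between these libraries.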

How the data were processed

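The members and gene lists were chosen with earlier results of these data known. Total RNA of wound tissue was sequenced by standard Illumina protocols, per the labels' protocols. The submitters' processing notes name HISAT2 and HTSeq 0.6.1 without their roles. Genome build and annotation are not given in the sources used here. Per the file headers, the authors deposited 53908 transcript models per library with FPKM and mean coverage, a signal that depends on depth. A deposited gene table of 31144 genes is named FPKM by the authors but was treated as a score, because its values rest on lengths other than those of the models, and it served as an alternative and for the order of levels.

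FPKM was summed per gene name, or per locus where no name is given. No test was possible with 1 library per group. The scale was log2(FPKM + 1), with a filter of 1 FPKM in either library and a mark of 2-fold. Aligned bases are coverage times length. Of 4743 models above 0 and under 950 bases in the control, 31.25% lay within 3 bases of a multiple of 150 bases. The chance share is 4%. A fragment equivalent was therefore taken as 300 bases, although most of these values did not lie at such multiples. This is an inference, since the labels give no read length. Intervals at 95% were exact binomial for folds and exact Poisson for levels, both from fragment equivalents rounded to whole numbers. They and the limit for a count of 0 (3 fragments) cover counting error only. The ratio and interval code was tested on simulated Poisson counts. Only genes above a minimum of control fragments were simulated, which the 5 low PR10 genes do not reach. Reads shared between copies were not simulated. The genes named are all PR10 genes, the genes of the stretch with at least 10 FPKM, fixed lists of defence genes and tissue markers, and the 5 genes nearest in ratio, of which 1 is not reported here. Genes of the stretch under 10 FPKM are outside this rule and were named after their values were seen, to account for the whole stretch. PR10-like genes outside the names, protein identities and promoter motifs were not analysed here, and no sequence is shown. Software was Python 3.11.15 with pandas 2.3.3, scipy 1.17.1 and matplotlib 3.10.9.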

Additional observations from a re-analysis of the deposited data

How the results depend on the processing

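No paired analysis was possible because there is 1 library per group, which also leaves no replicate to omit. PR10.2, PR10.3 and PR10.8 stayed at least 2-fold higher under all 8 settings: pseudocounts of 0.1 and 5, rescaling to a median log2 ratio of 0, aligned bases, the authors' deposited gene table, no filter, a filter of 10 FPKM, and the main one. Several of these settings could not take a gene under 2-fold. Filters leave the ratios of these genes unchanged, and the authors' deposited table has the same plain ratios. Rescaling multiplied all treated values by 1.25, which can only raise a ratio. At 4-fold 2 of the 3 genes remained. PR10.4 passed 2-fold in 1 setting, with the pseudocount of 0.1, at 1.85, and PR10.5, which is under the filter, stood at -1.47 there. The log2 ratio of the PR10 sum, 1.83, was 2.15 after rescaling, 1.55 in the authors' deposited table, where other lengths weight the genes, 1.14 without PR10.3 and 2.57 without PR10.2 (the last chosen after seeing the data). The count of 5 neighbours past 2-fold was 5 under each setting. Neither the filters nor the rescaling could take any of these neighbours under 2-fold. Of the neighbours, 4 share the same pair of values in the authors' deposited table, so its count of 5 does not rest on 5 separate values. Genes with PR10-like proteins were planned as a list and not run, since no protein sequences were used here. Depth leaves PR10.5, PR10.6, PR10.7 and PR10.9 unresolved.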
